A study of Mus musculus with 9 samples.

Results

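Microfold cell genes are genes that mark or build microfold (M) cells, the antigen-sampling cells of the epithelium over lymphoid follicles. The 7 genes Gp2, Spib, Sox8, Tnfaip2, Ccl9, Pglyrp1 and Marcksl1 were chosen by symbol. They were represented by 13 of the 34958 probe sets that carry a single gene symbol, and all 7 were among the 18194 genes tested. Gp2, Spib, Sox8 and Pglyrp1 had 1 probe set each, and where a gene had several the one with the highest mean log2 intensity stood for it. RNA was profiled on 9 arrays in 3 groups of 3, all from mice of the C57BL/6 background, per the labels. The groups were ZsG plus cells, ZsG minus medullary thymic epithelial cells (mTEC) and ZsG minus cortical thymic epithelial cells (cTEC). ZsG is the fluorescent protein ZsGreen, carried on a bacterial artificial chromosome at the ATG of Tslp, the gene of an epithelial cytokine. The mice were 8 to 20 weeks old, and neither the sort gates nor any pooling of animals is given in the sources used here. The cell type field names keratinocytes for every sample, so the groups follow the titles.

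Microfold cells take up particles and microbes from the gut lumen and pass them to immune cells below. In the intestine they form when the cytokine RANKL engages the receptor RANK, which activates NF-kappaB and, further down, the transcription factors Spi-B (Spib) and Sox8. Mature microfold cells carry glycoprotein 2 (Gp2), a surface receptor for bacteria, while Marcksl1 and Pglyrp1 are used as markers of earlier cells. The medulla of the thymus contains small groups of epithelial cells that resemble cells of other tissues, microfold cells among them. Several of the 7 genes are also used by blood cells: Spib by B cells and plasmacytoid dendritic cells, Pglyrp1 by neutrophils, and Ccl9 and Tnfaip2 by myeloid cells.

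Gp2, Ccl9 and Pglyrp1 were the members with an unadjusted p under 0.05 in both comparisons with ZsG minus cTEC, and Spib encodes the factor placed upstream in the intestine. The 250 bases before the start of these 4 genes are therefore shown, 5′ to 3′ on the strand of the gene, from RefSeq on the GRCm38.p6 build. Capitals mark matches, on either strand, to GAGGAAG, a core bound by Spi-B and related ETS factors, and to GGGNNNNNCC, a loose form of the NF-kappaB site.
Gp2, chr7:119459273-119459522, minus strand: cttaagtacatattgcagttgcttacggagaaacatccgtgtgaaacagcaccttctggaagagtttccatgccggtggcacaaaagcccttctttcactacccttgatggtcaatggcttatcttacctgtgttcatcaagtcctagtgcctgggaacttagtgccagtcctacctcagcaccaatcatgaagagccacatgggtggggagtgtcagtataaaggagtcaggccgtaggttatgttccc
Ccl9, chr11:83578637-83578886, minus strand: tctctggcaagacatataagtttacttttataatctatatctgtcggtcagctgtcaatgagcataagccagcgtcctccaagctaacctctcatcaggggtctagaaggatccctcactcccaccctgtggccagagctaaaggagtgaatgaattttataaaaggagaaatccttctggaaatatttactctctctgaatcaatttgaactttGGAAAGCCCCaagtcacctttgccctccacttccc
Pglyrp1, chr7:18884440-18884689, plus strand: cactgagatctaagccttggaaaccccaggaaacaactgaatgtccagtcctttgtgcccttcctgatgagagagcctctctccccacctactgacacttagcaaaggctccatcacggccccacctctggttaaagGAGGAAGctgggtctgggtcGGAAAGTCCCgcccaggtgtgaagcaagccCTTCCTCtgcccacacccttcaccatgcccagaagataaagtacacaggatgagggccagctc
Spib, chr7:44532072-44532321, minus strand: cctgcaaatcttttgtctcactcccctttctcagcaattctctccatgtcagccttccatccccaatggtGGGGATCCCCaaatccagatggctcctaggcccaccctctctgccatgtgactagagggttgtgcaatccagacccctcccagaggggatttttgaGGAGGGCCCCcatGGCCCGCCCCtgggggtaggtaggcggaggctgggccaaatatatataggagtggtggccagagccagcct
The Pglyrp1 promoter held GAGGAAG at positions -113 to -107 and, on the opposite strand, at -63 to -57, with negative positions counted back from the start. Between these lay GGAAAGTCCC, at -93 to -84, a match to GGGNNNNNCC on the opposite strand whose letters are those of the kappaB element of textbooks. These 10 letters occurred, on either strand, in 46 of 32851 mouse promoter windows of this length, or 0.14%. Counted in the same way, the exact letters of the Ccl9 match occurred in 0.131% of windows. Those of the Spib matches occurred in 0.0578%, 0.128% and 1.18%, so the 0.14% does not set the Pglyrp1 match apart. GAGGAAG occurred in 10.6% of all windows and in 1 of the 7 members. GGGNNNNNCC occurred in 45.8% of all windows and in 6 of the 7 members, Gp2 being without it, and the 2 motifs overlapped in none of the windows shown. The motifs were chosen with the sequences in view, and a match is a description of letters only.

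On the arrays, 6 of the 7 genes read higher in every ZsG minus mTEC sample than in every ZsG minus cTEC sample, and the level in ZsG plus cells lay between those groups for all 6, except that Pglyrp1 left that order when arrays were centred on their medians, Marcksl1 with quantile normalization or without ZsG plus replicate 1, and Sox8 with array weights or without ZsG plus replicate 1 or 3. Tnfaip2 was the exception, with its highest level in ZsG plus cells. No member passed the threshold of an adjusted p of 0.05 (limma, Benjamini-Hochberg over 18194 genes) in any of the 3 comparisons. The arrays measure bulk RNA, so fewer cells of a type and less RNA per cell cannot be told apart. Array medians over all probe sets ran from 230 to 316 in ZsG plus and from 366 to 424 in the other 6 arrays. The median within-group SD of a gene was 1.30 on the log2 scale in ZsG plus, 0.63 for the mTEC arrays and 0.61 for the cTEC arrays. The bacterial control probe sets DapX and PheX, which mark dim signal, read 3.77 to 341 over the arrays.

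**Figure D1:**
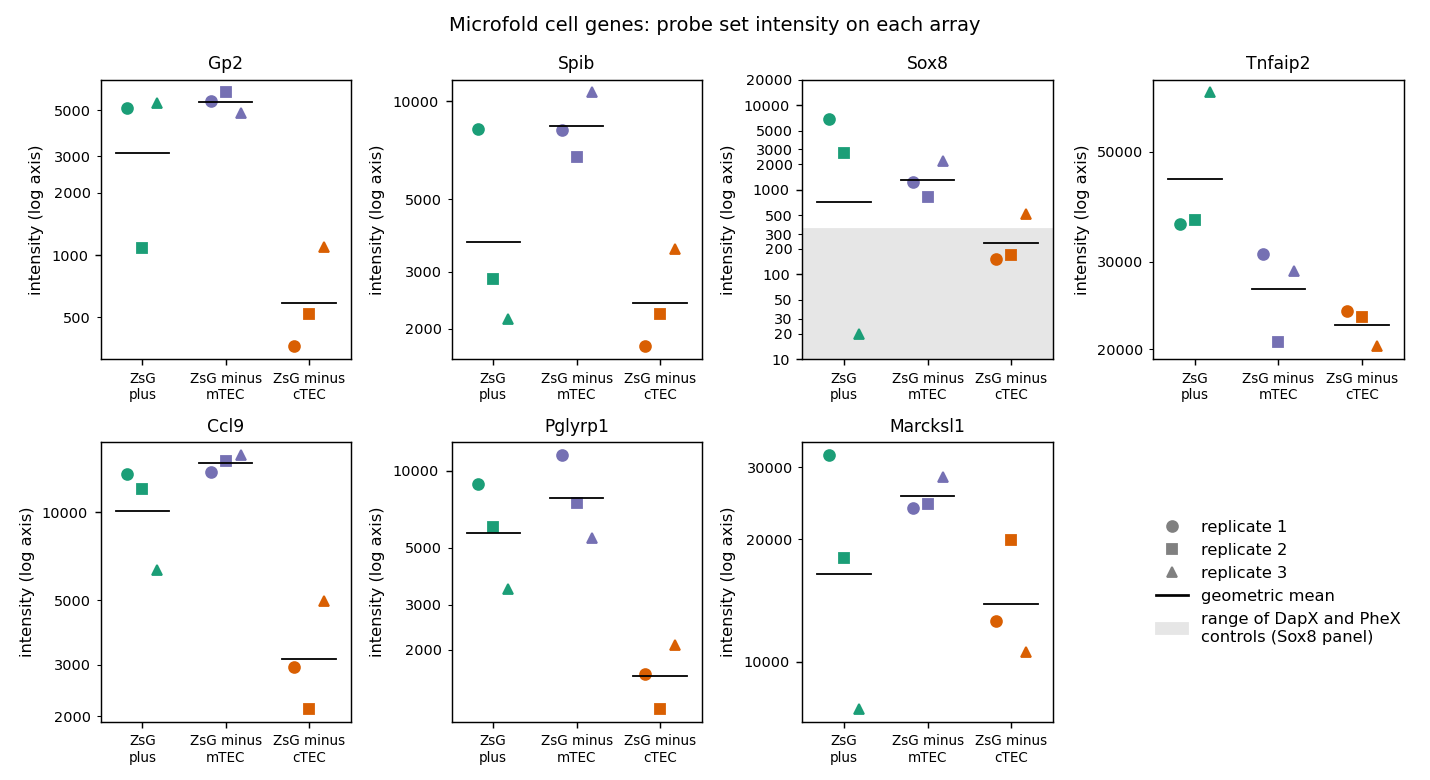
Probe set intensity of the 7 microfold cell genes on each array, on a log axis, with ZsG plus, ZsG minus mTEC and ZsG minus cTEC from left to right; symbols mark the replicate number, black lines the geometric mean of 3 arrays, and the grey band in the Sox8 panel the control range of 3.77 to 341. The ZsG minus mTEC points lie above all ZsG minus cTEC points in every panel except Tnfaip2, and the Sox8 point of ZsG plus replicate 3 lies at 19.9.

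The transcription factor genes come first. Spib read 8243, 2840 and 2143 in ZsG plus cells, 8191, 6765 and 10658 in ZsG minus mTEC, and 1767, 2225 and 3509 in ZsG minus cTEC. ZsG plus replicate 1 was thus at the level of ZsG minus mTEC, while the other two replicates lay within the range of ZsG minus cTEC. Spib was 3.50-fold higher in ZsG minus mTEC than in ZsG minus cTEC (log2 difference 1.81 ± 0.65, SE; limma adjusted p = 0.283), and these groups did not overlap. Relative to ZsG minus mTEC, ZsG plus differed by -1.19 ± 0.65 (limma adjusted p = 0.461), and relative to ZsG minus cTEC by 0.62 ± 0.65 (limma adjusted p = 0.642). Without ZsG plus replicate 1 the last of these was 0.041. Sox8, the factor required for Gp2 expression in intestinal microfold cells of the mouse, read 6949, 2723 and 19.9 in ZsG plus cells. It read 1223, 822 and 2211 in ZsG minus mTEC and 152, 169 and 519 in ZsG minus cTEC. ZsG plus thus held both the highest readings and the lowest one, and the lowest, like 2 of the ZsG minus cTEC readings, was within the range of the dim controls. The SD of Sox8 over the ZsG plus arrays was 4.54 on the log2 scale, and none of its differences passed. ZsG plus differed from ZsG minus mTEC by -0.85 ± 1.84 and from ZsG minus cTEC by 1.60 ± 1.84, and ZsG minus mTEC from ZsG minus cTEC by 2.46 ± 1.84 (limma adjusted p = 0.864, 0.675 and 0.703). The ZsG minus groups did not overlap. Leaving out ZsG plus replicate 3 turned the Sox8 difference from ZsG minus mTEC to 1.74 (limma adjusted p = 0.356) and raised that from ZsG minus cTEC to 4.19 (limma adjusted p = 0.0407). Leaving out ZsG plus replicate 1 gave -2.49 and -0.028 for the same differences (limma adjusted p = 0.490 and 0.994), so the direction of Sox8 in ZsG plus cells rested on single arrays. With array weights the difference from ZsG minus mTEC was 0.026.

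Gp2, the mature microfold marker, read 5114, 1076 and 5451 in ZsG plus cells, 5531, 6104 and 4879 in ZsG minus mTEC, and 363, 518 and 1090 in ZsG minus cTEC. The ZsG minus mTEC arrays agreed closely, with an SD of 0.16 on the log2 scale, and ZsG plus replicates 1 and 3 were at their level. ZsG plus replicate 2 lay just under the highest ZsG minus cTEC reading. Gp2 was 9.30-fold higher in ZsG minus mTEC than in ZsG minus cTEC, with an interval of 2.86-fold to 30.2-fold (95%, from the limma fit), a log2 difference of 3.22 ± 0.76 (limma adjusted p = 0.103). This was the largest difference of the 7 members in any of the comparisons. Over ZsG minus cTEC, ZsG plus stood 5.27-fold higher, or 2.40 ± 0.76 on the log2 scale (limma adjusted p = 0.141). Without ZsG plus replicate 2 that difference was 3.16 (limma adjusted p = 0.0348). ZsG plus differed from ZsG minus mTEC by -0.82 ± 0.76 (limma adjusted p = 0.656), a value that was -0.054 without ZsG plus replicate 2 and -1.22 without replicate 3.

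Ccl9 encodes a chemokine that draws CCR1-bearing myeloid cells. It read 13509, 12040 and 6353 in ZsG plus cells, 13704, 15028 and 15696 in ZsG minus mTEC, and 2947, 2117 and 4953 in ZsG minus cTEC. All 3 groups were separate, with ZsG minus mTEC on top and ZsG minus cTEC at the bottom. On the log2 scale ZsG plus differed from ZsG minus mTEC by -0.55 ± 0.57 and from ZsG minus cTEC by 1.69 ± 0.57, and ZsG minus mTEC from ZsG minus cTEC by 2.24 ± 0.57 (limma adjusted p = 0.694, 0.162 and 0.127). The other Ccl9 probe set gave -0.66, 0.86 and 1.52 for the same comparisons, with 2 of the 3 separations. Pglyrp1, a secreted protein that binds bacterial peptidoglycan, read 8894, 6055 and 3461 in ZsG plus cells, 11526, 7516 and 5489 in ZsG minus mTEC, and 1602, 1172 and 2095 in ZsG minus cTEC. ZsG plus and ZsG minus mTEC overlapped, and both lay wholly above ZsG minus cTEC. Pglyrp1 was 3.62-fold higher in ZsG plus cells than in ZsG minus cTEC (1.86 ± 0.60, limma adjusted p = 0.147) and 4.94-fold higher in ZsG minus mTEC than in ZsG minus cTEC (2.31 ± 0.60, limma adjusted p = 0.130). From ZsG minus mTEC, ZsG plus differed by -0.45 ± 0.60 (limma adjusted p = 0.762), a direction that turned to 0.083 when each array was centred on its median.

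Tnfaip2, which encodes M-Sec, a protein that drives the membrane tubes joining neighbouring cells, read 35781, 36357 and 65911 in ZsG plus cells, 31152, 20674 and 28815 in ZsG minus mTEC, and 23908, 23184 and 20262 in ZsG minus cTEC. Every ZsG plus array lay above all the others. The fold of ZsG plus was 1.67 over ZsG minus mTEC (0.74 ± 0.52, limma adjusted p = 0.559) and 1.97 over ZsG minus cTEC (0.98 ± 0.52, limma adjusted p = 0.349). The ZsG minus groups overlapped, at 0.24 ± 0.52 (limma adjusted p = 0.948). The probe set used has the suffix x_at, which Affymetrix gives where probes may also match other transcripts. The other Tnfaip2 probe sets had the same signs, at 0.93 and 0.40 for ZsG plus over ZsG minus mTEC and at 1.17 and 1.70 over ZsG minus cTEC, but in neither were the groups separate. The less dim of these read 6563, 6202 and 505 in ZsG plus cells, against 1877, 796 and 1972 in the mTEC arrays and 594, 1709 and 1777 in the cTEC arrays.

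Marcksl1, which encodes an actin- and calmodulin-binding protein, read 32160, 17988 and 7644 in ZsG plus cells, 23879, 24339 and 28491 in ZsG minus mTEC, and 12558, 19892 and 10576 in ZsG minus cTEC. ZsG plus spanned the range of both other groups. The difference between the ZsG minus groups, which were separate, was 0.88 ± 0.64 (limma adjusted p = 0.687), and it was positive in all 4 Marcksl1 probe sets, from 0.64 to 2.06, with separate groups in each. ZsG plus differed from ZsG minus mTEC by -0.63 ± 0.64 (limma adjusted p = 0.683), and by -0.084 without ZsG plus replicate 3. It differed from ZsG minus cTEC by 0.25 ± 0.64 (limma adjusted p = 0.864), a direction that turned to -0.026 with quantile normalization and to -0.24 without ZsG plus replicate 1. The 4 probe sets disagreed there too, at 0.25, 1.12, -0.34 and 0.52.

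**Figure D2:**
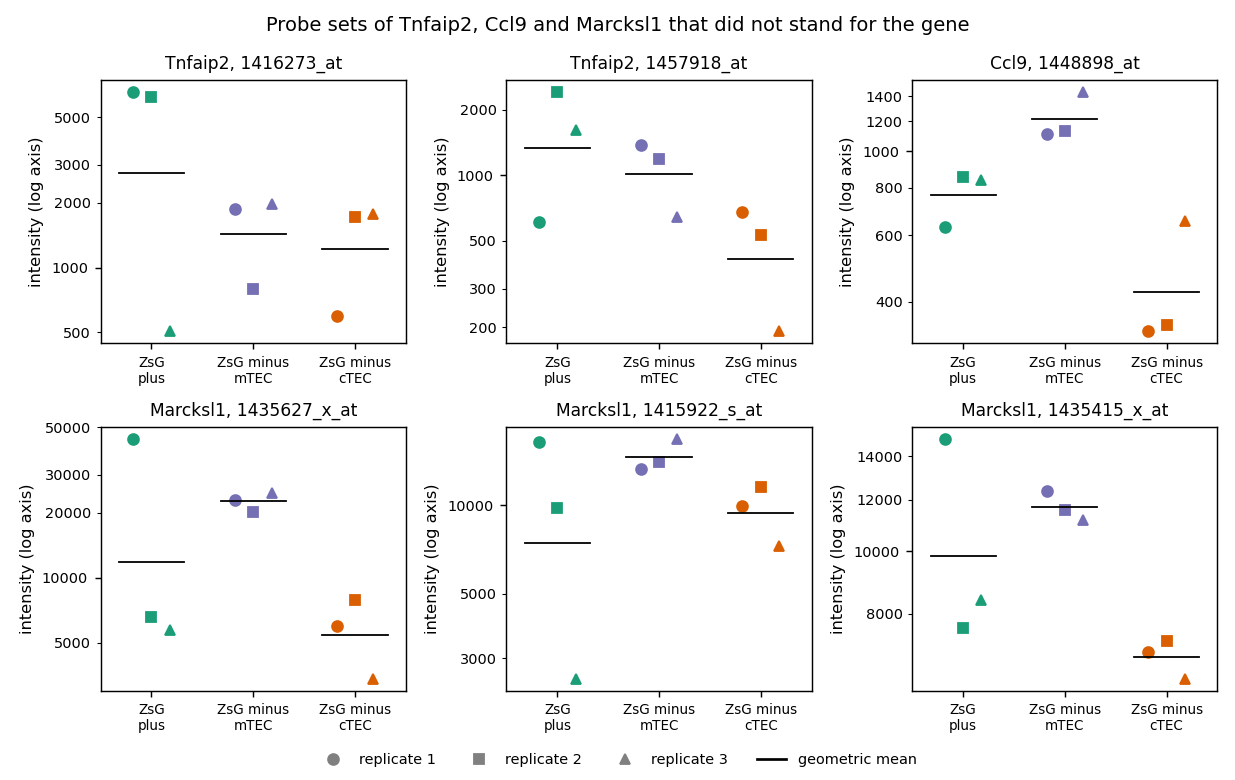
Intensity on each array, on a log axis, of the 6 probe sets of Tnfaip2, Ccl9 and Marcksl1 that did not stand for the gene, with ZsG plus, ZsG minus mTEC and ZsG minus cTEC from left to right, symbols for replicate numbers and black lines for the geometric mean. In the 3 Marcksl1 panels and the Ccl9 panel all ZsG minus mTEC points lie above all ZsG minus cTEC points, whereas the groups overlap in both Tnfaip2 panels.

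Of the 3 comparisons, that between ZsG minus mTEC and ZsG minus cTEC asks how medullary and cortical epithelium differ. None of the 7 members passed the threshold there, as against 0.528% of all genes called higher and 0.0989% called lower. At an unadjusted p under 0.05, 4 members (Gp2, Spib, Ccl9 and Pglyrp1) were higher and 0 lower, against 8.40% and 3.90% of all genes. The groups did not overlap in 6 of the 7, all higher, against 16.6% of all genes higher and 11.8% lower without overlap. The median log2 difference of the members was 2.24, and that of all genes 0.09. All 7 members were positive, against 53.9% of all genes. Of their 13 probe sets all were positive and 10 had separate groups, but Marcksl1, Tnfaip2 and Ccl9 have several each, so these do not count as separate genes. The SE and p-values here also include the spread of the ZsG plus arrays, which was wider for most members. Some other fits called members higher in this comparison. With array weights, Gp2, Spib, Ccl9 and Pglyrp1 passed (limma adjusted p = 0.00805, 0.0343, 0.0130 and 0.0163). With intensities under 100 set to 100, Ccl9 and Pglyrp1 passed, and with only the 6 arrays compared Gp2 passed. Under every alternative the 7 differences stayed positive.

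For ZsG plus versus ZsG minus cTEC, 0 of the 7 passed, as against 0.599% of all genes called higher and 1.14% called lower. At an unadjusted p under 0.05, 3 members (Gp2, Ccl9 and Pglyrp1) were higher and 0 lower, against 7.44% and 11.3% of all genes. The groups did not overlap in Tnfaip2, Ccl9 and Pglyrp1, all higher, against 9.90% of all genes higher and 13.4% lower without overlap. The median difference of the members was 1.60, and that of all genes -0.14. This comparison shares its ZsG minus cTEC arrays with the one above, so the likeness of their values is no separate result.

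ZsG plus versus ZsG minus mTEC asks in what reporter-positive cells differ from medullary epithelium. Here 0 members passed, against 0.0165% of all genes called higher and 0.203% called lower, and 0 had an unadjusted p under 0.05, against 3.20% and 10.2%. Tnfaip2 was higher without overlap, against 5.77% of all genes, and Ccl9 lower without overlap, against 12.3%. The median difference was -0.63, and that of all genes -0.33. The interval of Gp2 ran from 0.174-fold to 1.84-fold and that of Sox8 from 0.0313-fold to 9.80-fold. A fall of several fold thus lay within both intervals, and a rise of several fold within that of Sox8. The ZsG plus arrays also differed among themselves in which was low: replicate 3 was the lowest for 5 of the members, replicate 2 for Gp2 and replicate 1 for Tnfaip2. The highest ZsG plus array exceeded the lowest by 1.84-fold for Tnfaip2. For Sox8 the lowest reading was dim, so the same ratio has no exact size. Its highest ZsG plus array was 20.4-fold the highest control reading. Without ZsG plus replicate 3, the difference from ZsG minus mTEC was smaller for other members too: Ccl9 differed by -0.21, Pglyrp1 by -0.089 and Tnfaip2 by 0.45. With arrays centred on their medians the same difference was -0.65 for Spib, -0.015 for Ccl9, -0.10 for Marcksl1 and 1.27 for Tnfaip2.

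**Figure D3:**
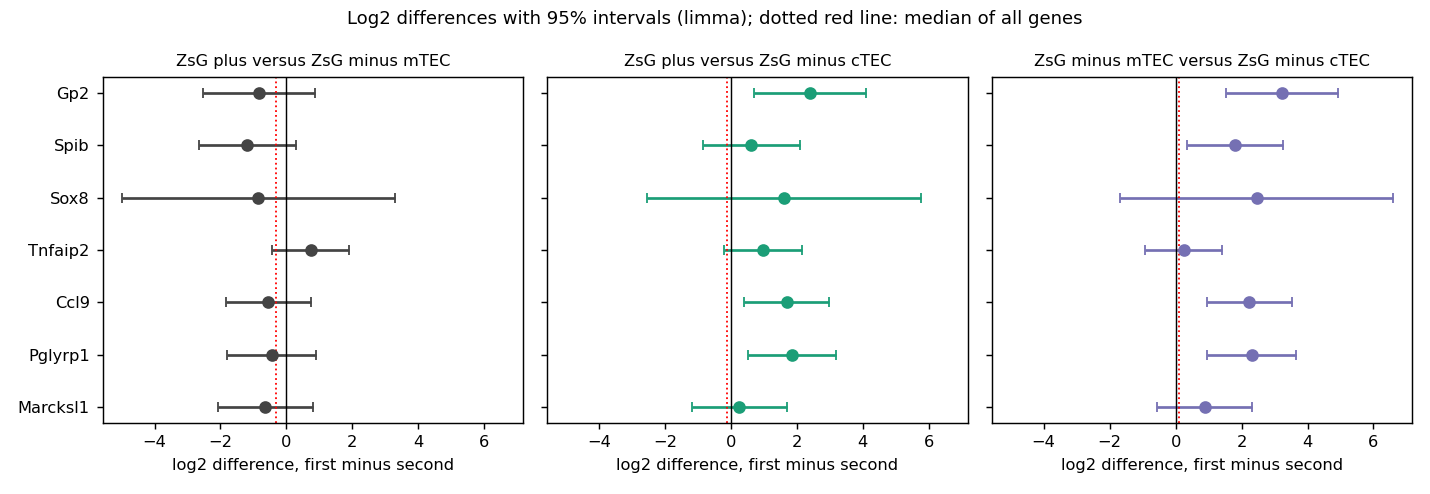
Log2 differences of the 7 microfold cell genes (points) with 95% intervals from the limma fit (bars), in ZsG plus versus ZsG minus mTEC, ZsG plus versus ZsG minus cTEC and ZsG minus mTEC versus ZsG minus cTEC; dotted red lines mark the medians of all genes at -0.33, -0.14 and 0.09. All 7 points lie above 0 in both comparisons with ZsG minus cTEC, as do 46.3% and 53.9% of all genes, and the Sox8 interval is the widest.

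Of 14 other genes tied to microfold cells, all measured, Ccl20 passed the threshold. Ccl20, the follicle epithelium chemokine that attracts CCR6-bearing cells, read 3217, 2432 and 1496 in ZsG plus cells, 5351, 3170 and 3115 in ZsG minus mTEC, and 505, 384 and 392 in ZsG minus cTEC. It rose by 3.15 ± 0.55 on the log2 scale in ZsG minus mTEC against ZsG minus cTEC (limma adjusted p = 0.0491), and ZsG plus differed from ZsG minus cTEC by 2.42 ± 0.55 (limma adjusted p = 0.0641). Leaving out any ZsG minus array left 0 of all genes past the threshold between the ZsG minus groups, Ccl20 included, with 1697 to 1845 at an unadjusted p under 0.05 (limma). In ZsG minus mTEC against ZsG minus cTEC, 1 of the 14 passed as higher and 0 as lower, against 0.528% and 0.0989% of all genes, and the median difference was 1.04. Without overlap 8 were higher and 3 lower, against 16.6% and 11.8% of all genes. The bright members Clu, Anxa5 and Cxcl16 differed by 1.25 ± 0.54, 0.28 ± 0.61 and -1.99 ± 0.76 there and did not pass. In ZsG plus against ZsG minus cTEC, 0 of the 14 passed, and 5 were higher and 1 lower at an unadjusted p under 0.05, against 7.44% and 11.3% of all genes. In ZsG plus against ZsG minus mTEC, 0 passed, with 0 higher and 1 lower at that level, against 3.20% and 10.2%. Further genes were singled out after their values were seen. Scg5, a neuroendocrine chaperone also made by intestinal microfold cells, read 1323, 382 and 218 in ZsG plus cells, 1064, 1852 and 2324 in ZsG minus mTEC, and 144, 64.3 and 85.1 in ZsG minus cTEC. All 3 ZsG minus cTEC readings of Scg5 were within the range of the dim controls. The fold of ZsG minus mTEC over ZsG minus cTEC therefore has no exact size for Scg5. Its level in ZsG minus mTEC was 4.87-fold the highest control reading. Esrrg, a nuclear receptor upstream of Sox8 in the mouse gut, read 1088, 2092 and 6874 in ZsG plus cells, 2229, 1802 and 2716 in ZsG minus mTEC, and 723, 370 and 202 in ZsG minus cTEC. For Esrrg both the ZsG plus and the ZsG minus mTEC arrays lay above all ZsG minus cTEC arrays, at 2.73 ± 0.78 and 2.55 ± 0.78, without passing (limma adjusted p = 0.115 and 0.199).

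Of the 10 genes of the RANK and NF-kappaB input, 8 were measured, and Tnfrsf11b was the one that passed. In ZsG plus against ZsG minus cTEC 1 of the 8 was thus called higher and 0 lower, against 0.599% and 1.14% of all genes. Tnfrsf11b encodes osteoprotegerin, the decoy that binds RANKL and holds it off RANK. It read 12308, 10682 and 19491 in ZsG plus cells, 5167, 8619 and 11083 in ZsG minus mTEC, and 1361, 1234 and 1828 in ZsG minus cTEC. It rose by 3.24 ± 0.55 in ZsG plus against ZsG minus cTEC (limma adjusted p = 0.0334), while ZsG minus mTEC differed from ZsG minus cTEC by 2.44 ± 0.55 (limma adjusted p = 0.0943) and ZsG plus from ZsG minus mTEC by 0.79 ± 0.55 (limma adjusted p = 0.555). Without ZsG minus cTEC replicate 1 or replicate 2, 0 of all genes passed between ZsG plus and ZsG minus cTEC, with 2467 and 2437 at an unadjusted p under 0.05 (limma). The list as a whole had medians of 0.38 in ZsG plus against ZsG minus mTEC, 0.19 in ZsG plus against ZsG minus cTEC and 0.06 in ZsG minus mTEC against ZsG minus cTEC. Traf6, an adaptor below RANK, and Nfkb2, a subunit of the alternative NF-kappaB pathway, differed by 0.18 ± 0.88 and 0.96 ± 0.65 in ZsG plus against ZsG minus cTEC and did not pass. RANK itself, Tnfrsf11a, chosen after its values were seen, read 933, 3422 and 340 in ZsG plus cells, 1609, 1745 and 2150 in ZsG minus mTEC, and 904, 2414 and 679 in ZsG minus cTEC, with all groups overlapping.

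**Figure D4:**
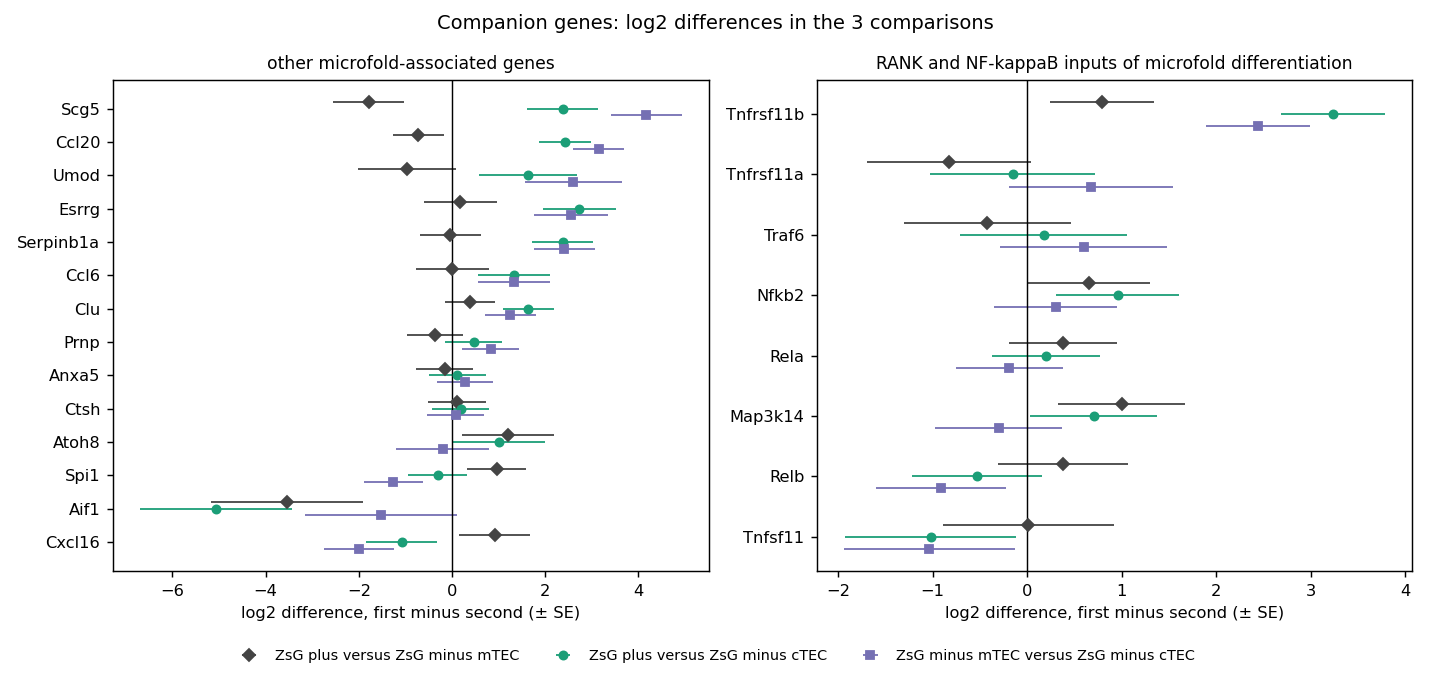
Log2 differences with standard errors (bars) of 14 other microfold-associated genes (left) and 8 measured genes of the RANK and NF-kappaB input (right), in ZsG plus versus ZsG minus mTEC (diamonds), ZsG plus versus ZsG minus cTEC (circles) and ZsG minus mTEC versus ZsG minus cTEC (squares). Ccl20 stands at 3.15 in the last comparison in the left panel; the Scg5 square above it is set against dim ZsG minus cTEC readings and has no exact place. Tnfrsf11b stands at the top of the right panel at 2.44.

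Markers of other cells were read beside the members. The epithelial genes Epcam and Krt8 were bright on all arrays, at 9084 to 52536 and 16029 to 77587. Aire, the medullary regulator, was higher and Prss16, a cortical protease, lower in both ZsG plus and ZsG minus mTEC than in ZsG minus cTEC, past the threshold in each case. The medullary gene Fezf2 was also higher in both (limma adjusted p = 0.0258 and 0.0449). Psmb11, a cortical gene, passed as lower in ZsG plus (limma adjusted p = 0.0452) but did not pass in ZsG minus mTEC (limma adjusted p = 0.120). Of 10 enterocyte markers 9 were measured. Fabp2, a fatty acid carrier of the gut, read 4365, 5486 and 4376 in ZsG plus cells, 10323, 7597 and 5722 in ZsG minus mTEC, and 598, 401 and 490 in ZsG minus cTEC. It passed as higher in both comparisons with ZsG minus cTEC (3.27 ± 0.51 and 3.97 ± 0.51). Fabp2 was the 1 of the 9 called in each, against 0.599% and 0.528% of all genes called higher. The median of the enterocyte list was 2.34 in ZsG minus mTEC against ZsG minus cTEC, close to the 2.24 of the microfold genes, with 5 of 9 higher without overlap, against 16.6% of all genes.

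Neutrophil markers were read beside Pglyrp1. The summed intensity of the 9 measured of 10 was 18802 to 24043 in ZsG plus cells, 38123 to 45716 in the mTEC arrays and 4986 to 14634 in the cTEC arrays. Most of it in ZsG minus mTEC came from S100a8, at 16393 to 17093, and S100a9, at 11888 to 18063, while Ltf, lactoferrin, differed by -0.27 ± 0.95 between the ZsG minus groups. Elane and Csf3r, a neutrophil protease and a receptor chosen after their values were seen, were within the range of the dim controls on all 9 arrays. Mpo and Ngp, also named after their values were seen, were higher without overlap in ZsG minus mTEC than in ZsG minus cTEC. Mpo read 4443, 6609 and 5036 against 261, 114 and 1574, and Ngp 900, 752 and 785 against 198, 387 and 85.9. Neither passed (limma adjusted p = 0.154 and 0.413), and each had ZsG minus cTEC readings within the range of the dim controls. In ZsG minus mTEC against ZsG minus cTEC 0 of the 9 passed, and 5 were higher and 0 lower without overlap, against 16.6% and 11.8% of all genes. At an unadjusted p under 0.05, 4 were higher and 1 lower, against 8.40% and 3.90%. The dim Elane was among the higher ones in both counts. The lower one was the receptor gene Cxcr2, named after its values were seen. Its ZsG minus mTEC readings, 136, 3.52 and 6.61, were all within the range of the dim controls and its groups overlapped, so no exact size can be given. Within ZsG plus and within ZsG minus mTEC the sum was lowest on replicate 1, where Pglyrp1 was highest, and within ZsG minus cTEC both were highest on replicate 3. Marker by marker the picture in ZsG plus was mixed. There 5 of the 9 markers were lowest on replicate 3, where Pglyrp1 was also lowest, and 4 were lowest on replicate 1. Among the 9, Ngp, Elane, Csf3r and Cxcr2 were within the range of the dim controls on every ZsG plus array, which limits this count. For Spib, the 7 measured of 8 B cell markers summed to 3270 to 8762 in ZsG plus cells, 1599 to 3157 in the mTEC arrays and 993 to 3456 in the cTEC arrays. The highest sum was on ZsG plus replicate 1, where Spib was highest in that group, and 8136 of its 8762 came from Cd79a, part of the B cell receptor. On that array 4 of the 7 markers had their lowest ZsG plus reading, Cd79b among them at 116, against 507 and 374 on the other two. All 4 of those lowest readings were within the range of the dim controls. Blk, another of the 4, was within it on every ZsG plus array. The 7 measured of 8 plasmacytoid dendritic cell markers summed to 16390 to 29024 in ZsG plus cells, 15708 to 22168 in the mTEC arrays and 22891 to 29499 in the cTEC arrays. In ZsG minus mTEC against ZsG minus cTEC 1 of these 7 was higher and 2 were lower without overlap, against 16.6% and 11.8% of all genes. For Ccl9 and Tnfaip2, the 13 macrophage and dendritic cell markers summed to 35343 to 105224 in ZsG plus cells, 39368 to 53967 in the mTEC arrays and 18665 to 54559 in the cTEC arrays. The highest of these sums was on ZsG plus replicate 3, where 66337 of the 105224 came from Lyz2. On that array 3 of the 13 markers had their lowest ZsG plus reading. The probe set used for Tnfaip2 was also highest there, and that for Ccl9 lowest, of the ZsG plus group. Other probe sets of both genes differed in this. For Tnfaip2 they were highest on replicate 1, at 6563, and on replicate 2, at 2418, and the former was lowest on replicate 3, at 505. The other Ccl9 probe set was lowest on replicate 1, at 631. In ZsG plus against ZsG minus mTEC 4 of the 13 were higher and 0 lower without overlap, against 5.77% and 12.3% of all genes, with 0 past the threshold and a median difference of 0.62, against -0.33 for all genes. Flt3, a dendritic cell receptor, read 3023, 2606 and 4765 in ZsG plus cells, 113, 391 and 150 in ZsG minus mTEC, and 2935, 8317 and 1945 in ZsG minus cTEC. It differed by 4.16 ± 0.74 in ZsG plus against ZsG minus mTEC (limma adjusted p = 0.0747) and fell past the threshold in ZsG minus mTEC against ZsG minus cTEC (limma adjusted p = 0.0485), with 2 of the 3 ZsG minus mTEC readings within the range of the dim controls, so neither size is exact. Thymocyte markers, 10 of 11 measured, summed to 7084 to 8438 in ZsG plus cells, 5983 to 9760 in the mTEC arrays and 45989 to 62456 in the cTEC arrays. Cd8a fell past the threshold in both comparisons with ZsG minus cTEC, by 4.13 ± 0.61 in ZsG plus and by 3.41 ± 0.61 in ZsG minus mTEC. The part of any of these cells in the values of the microfold genes was not tested.

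The genes whose log2 intensity followed each member most closely over the 9 arrays are given as a description. Such values hold the 3 group means and a common array scaling, and the highest of very many correlations is large by selection. Gp2 was followed most closely by Ctrb1, a pancreatic digestive protease precursor, with Pearson's r of 0.989, then by Wfdc18 (0.983) and Wfdc17 (0.967), secreted proteins of the WAP family. The level of Ctrb1 was 4272 in ZsG plus, 5884 in ZsG minus mTEC, and for the cTEC arrays 391. After the group means were removed, r between Gp2 and Ctrb1 over the arrays was 0.985. Ccl9 was followed by Il18r1, a chain of the interleukin 18 receptor (0.984), Psors1c2 (0.983) and Cystm1 (0.980). Pglyrp1 was followed by Cdo1, cysteine dioxygenase (0.978), Lrrc42 (0.974) and Dsg1a, a desmoglein of stratified epithelium (0.971). Spib was followed by Wnk4 (0.955), Ly6d (0.954) and Rnf180 (0.953), and Sox8 by Tenm2 (0.987), Fndc7 (0.968) and Cdh22 (0.966). Tnfaip2 was followed by Psme3, a proteasome activator subunit (0.982), Cacna1d (0.973) and Chdh (0.970), and Marcksl1 by Lxn (0.970), Rnf11 (0.953) and Aif1l (0.950).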

How the data were processed

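The authors deposited linear intensities for 45101 probe sets on each of 9 arrays; how they were made is not given in the sources used here. Every array had the same mean, 1250, once 2% was removed at each end, so the deposited intensities had been scaled to it. Per the labels' protocols, 5 ng of RNA went into an Ovation Pico amplification. The number of arrays limits the precision, and no detection calls were analysed here.

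Intensities were taken to log2. Gene names came from the platform annotation table: 34958 probe sets had 1 symbol, 932 several and 9211 none. The brightest single-symbol probe set stood for each of 18194 genes. The test was limma 3.58.1 in R 4.3.3 (lmFit, eBayes, 1 coefficient per group over all 9 arrays, 6 residual and 3.28 prior degrees of freedom), two-sided, with Benjamini-Hochberg adjustment over all genes and a threshold of 0.05. A value after ± is the standard error of a log2 difference, and levels are geometric means. The standard errors and p-values of each comparison rest on a spread pooled over all 3 groups, including the group not compared. The labels do not tie replicates to separate animals, so the p-values cover the spread of these samples alone, which may be technical. No pair of arrays held identical values. The fit was tested on simulated data. Figures were drawn with matplotlib 3.10.9.

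The members and lists were chosen with earlier results of these data known. Of the 95 memberships in 9 lists of other genes, 88 were measured. Named list genes were taken from those past the threshold and the 3 brightest of each list, not all of which are named, and others are marked as chosen afterwards. The 3 genes most like each member were taken from those at or above the 40th percentile of mean intensity, without unnamed clones. Alternatives were a mean over probe sets, all probe sets tested, that percentile as a filter, quantile normalization, centring on the array median, a floor of 100, only the 6 arrays compared, array weights, a replicate block, and leaving out each array. Promoter sequences came from RefSeq (GRCm38.p6), and all 7 members matched.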

Additional observations from a re-analysis of the deposited data

How the results depend on the processing

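Of 378 values of the 21 member differences under the alternatives, 363 kept their direction and side of the threshold, 9 passed it and 6 changed sign, all 6 in ZsG plus comparisons. Sox8 against ZsG minus mTEC became 0.026 with array weights and 1.74 without ZsG plus replicate 3, and against ZsG minus cTEC -0.028 without ZsG plus replicate 1; without single arrays these differences ran from -2.49 to 1.74 and from -0.028 to 4.19. Pglyrp1 against ZsG minus mTEC became 0.083 when centred on the array median, and Marcksl1 against ZsG minus cTEC became -0.026 with quantile normalization and -0.24 without ZsG plus replicate 1, with a range of -0.24 to 0.80 without single arrays. The causes were not tested.

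In ZsG minus mTEC versus ZsG minus cTEC, 2 members passed with a floor of 100, 1 with only the 6 arrays compared and 4 with array weights, against 0 as reported. In ZsG plus versus ZsG minus cTEC, leaving out single arrays gave 0 to 1 members. The number of members without overlap between ZsG plus and ZsG minus mTEC, 2 as reported, was 1 with a mean over probe sets, 1 with centring, and 2 to 4 without single arrays; these counts were added after seeing the data.

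The counts over all genes, against which the members were read, moved widely. For ZsG plus versus ZsG minus mTEC, 40 genes as reported (3 higher) became 82 with all probe sets tested, 15 (4 higher) with quantile normalization, 3 (1 higher) with centring and 202 with the floor. With only the 6 arrays compared, array weights or a replicate block, 0 passed in limma, with 1785, 1705 and 2320 at an unadjusted p under 0.05. Without single arrays the count was 0 to 230. For ZsG plus versus ZsG minus cTEC, 317 became 496 with a mean over probe sets, 536 with all probe sets, 504 with the percentile filter, 862 with the floor, 37 with array weights and 16 with the replicate block. With only the 6 arrays compared 0 passed, with 2704 at an unadjusted p under 0.05, and without single arrays 0 to 735 passed. Between the ZsG minus groups 114 became 216, 43 and 176 under those first 3 alternatives, 178 with quantile normalization, 71 with centring, 425 with the floor, 548 with only the 6 arrays and 1220 with array weights. With the replicate block 0 passed, with 2172 at an unadjusted p under 0.05, and without single arrays 0 to 304 passed; leaving out any ZsG minus array gave 0.

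Same-numbered arrays did not deviate together (r of deviations from the group means from -0.02 to 0.01), so the numbers were not taken as pairs, and the replicate block passed 0 members in each comparison. Dim signal limits Sox8 in ZsG minus cTEC.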
